A study of Mus musculus with 36 samples.

Results

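The TCP1 ring chaperonin (TRiC, also called CCT) is the chaperonin of the cytosol, a barrel of stacked rings that encloses unfolded proteins and folds them with the energy of ATP. Each ring is built from 8 related but distinct subunits, encoded by Tcp1 (the alpha subunit), Cct2 (beta), Cct3 (gamma), Cct4 (delta), Cct5 (epsilon), Cct6a (zeta), Cct7 (eta) and Cct8 (theta), each with its own place in the ring. Its best known clients are actins and tubulins, the proteins of the thin filaments and the microtubules of heart muscle cells. The 8 genes were taken by their symbols, and all 8 were measured, by 23 probe sets that the platform annotation gives to a single one of these symbols. They are 8 of the 12393 genes of the data set.

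The values came from 36 Affymetrix expression arrays of total RNA from the left ventricle of the mouse heart, 1 array per mouse. Of these, 18 were from mice that had undergone transverse aortic constriction (TAC), which narrows the aorta and raises the pressure against which the left ventricle pumps, and 18 from mice with a SHAM operation. All were killed 8 weeks after surgery, at ZT03, ZT07, ZT11, ZT15, ZT19 or ZT23 (zeitgeber time, hours on the light schedule), with 3 mice for each surgery and time, called biological replicates in the labels. The labels used here give no strain, sex, age or light schedule. The deposited values of each probe set have a median of 0 within SHAM and, separately, within TAC. No subunit can therefore be called higher or lower after TAC, and no level of a marker gene can be read to check the labelled tissue. What follows compares times of day, their course in SHAM and in TAC, and the way the subunits vary together from mouse to mouse. The p-values measure the spread between mice, with 1 estimate per gene for both surgeries. Values are on a log scale, taken as log2, relative to the median of the mouse's own surgery.

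Array medians lay between -0.0358 and 0.0275. Of 4 marker lists of other tissues (thymocyte, airway, white and brown adipocyte), at least 1 had a mean above 1 on 7 arrays. SHAM ZT11 replicate 3 had a thymocyte marker mean of 2.22, TAC ZT23 replicate 1 an airway marker mean of 1.6 and TAC ZT03 replicate 3 an airway marker mean of 1.14. The mean of the 8 subunits on these 3 arrays was 0.06, 0.02 and -0.01. An adipocyte mean was above 1 on SHAM ZT11 replicate 3 (white 1.12, brown 1.24), SHAM ZT23 replicate 2 (brown 1.12), TAC ZT11 replicate 3 (white 1.26), TAC ZT15 replicate 1 (brown 1.15) and TAC ZT15 replicate 3 (white 1.01, brown 1.05). The last of these also had the highest subunit mean of all TAC arrays, 0.22, and the part of fat in it was not tested. Without all 7 arrays, an alternative added after the data had been seen, the limma tests of rhythm, of any shape and of a difference between the surgeries called 0 of 8 subunits after adjustment, as with all arrays. Precision is limited by how few arrays there are, and in tissue RNA fewer cells of a type and less RNA per cell cannot be told apart.

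The stretches just before the transcription starts of the subunit genes are shown because the 8 mRNAs are asked to move together, and shared letters there are the feature that the measurements did not use. RefSeq's promoter table (build GRCm38.p6) held 7 of the 8 genes with 9 starts; Cct4 (chr11:22990593-23003336) was not matched. The 110 bases that end at the base before the first listed start are printed 5′ to 3′ on the strand of the gene, with capitals for a match to any of 5 searched motifs on either strand.
Tcp1: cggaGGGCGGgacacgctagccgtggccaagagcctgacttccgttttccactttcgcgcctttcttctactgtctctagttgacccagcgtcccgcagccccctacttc
Cct2: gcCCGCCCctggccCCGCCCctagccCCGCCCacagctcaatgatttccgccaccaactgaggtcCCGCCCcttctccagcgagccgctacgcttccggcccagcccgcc
Cct3: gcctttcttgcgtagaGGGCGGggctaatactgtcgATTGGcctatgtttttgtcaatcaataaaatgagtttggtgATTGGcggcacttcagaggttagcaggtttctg
Cct5: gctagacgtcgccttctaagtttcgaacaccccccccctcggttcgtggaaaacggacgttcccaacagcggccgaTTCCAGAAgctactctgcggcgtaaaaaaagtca
Cct6a: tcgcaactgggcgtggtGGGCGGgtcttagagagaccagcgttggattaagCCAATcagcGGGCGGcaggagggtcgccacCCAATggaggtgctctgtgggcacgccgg
Cct7: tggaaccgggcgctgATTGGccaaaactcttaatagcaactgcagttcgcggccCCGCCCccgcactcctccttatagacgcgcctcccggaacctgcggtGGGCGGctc
Cct8: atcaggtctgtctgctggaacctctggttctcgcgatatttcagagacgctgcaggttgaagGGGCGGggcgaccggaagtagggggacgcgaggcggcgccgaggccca

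On GRCm38.p6 the Tcp1 stretch is chr17:12916219-12916328, that of Cct3 chr3:88297025-88297134, that of Cct6a chr5:129787246-129787355 and that of Cct7 chr6:85451395-85451504, all on the plus strand. Those on the minus strand are Cct2 at chr10:117063853-117063962, Cct5 at chr15:31601847-31601956 and Cct8 at chr16:87495870-87495979. The motifs were searched in the whole window of 250 bases before to 50 after each start, over 32817 windows in all. The GC box GGGCGG, which Sp factors bind, was in 8 of the 9 windows of the subunits (7 of 7 genes) and in 35.6% of all windows. On the other strand it reads CCGCCC. Cct2 held it 4 times in the printed stretch. The CCAAT box (ATTGG on the other strand), bound by NF-Y, was in 4 of the 9 windows and in 37.4% of all windows. These belong to 4 of 7 genes, Tcp1, Cct3, Cct6a and Cct7.

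The paired units of the heat shock element, TTCNNGAA and GAANNTTC, read the same on both strands and can overlap each other. TTCNNGAA was in 2 of the 9 subunit windows (2 of 7 genes), against 8.51% of all windows. It stood in Cct5 as TTCCAGAA from position -34 and in Cct6a as TTCGAGAA from position 25, counted from the start with no position 0. GAANNTTC was in 1 of the 9, before the second listed start of Cct2 as GAAGTTTC from -42, against 7.86%. The E-box CACGTG, which the clock activators can bind, was in 0 of the 9 subunit windows (0 of 7 genes) and in 7.15% of all windows. These are matches of letters and show neither a bound site nor its absence.

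The starts of 6 of the 7 genes lay within 1000 bases of the start of another gene on the opposite strand, as did those of 4253 of 26994 genes in the table (15.8%). The 6 subunit pairs all face away from each other, while the share over all genes counts any layout. Tcp1 is paired with Mrpl18, a mitochondrial ribosomal protein gene, 238 bases away, and Cct6a with Psph, which encodes the last enzyme of serine synthesis, 103 bases away. Cct7 is paired with Pradc1 (203 bases), Cct3 with Tsacc (136), Cct5 with Atpsckmt (270) and Cct8 with the long noncoding RNA B130034C11Rik (204). Of these neighbours 3 had values. Mrpl18 followed Tcp1 with a Pearson r of 0.73 in SHAM and 0.51 in TAC, Psph followed Cct6a with 0.38 and 0.61, and Pradc1 followed Cct7 with 0.36 and 0.49, each over the 18 arrays of a surgery. These correlations are descriptions, and the values share arrays.

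Over the day the subunit mRNAs kept within a narrow range. The mean of the 8 in SHAM was lowest at ZT03, -0.08 ± 0.07 (SD, n = 3), and highest at ZT19, 0.05 ± 0.02. In TAC it was -0.11 ± 0.14 at ZT11 and 0.08 ± 0.02 at ZT19. At ZT19 the 3 TAC mice had means of 0.11, 0.06 and 0.07, and at ZT11 0.03, -0.26 and -0.1. These groups did not overlap, but they are the times of highest and lowest mean, picked from these values, so the gap is no test. The value of -0.26 was the lowest of all TAC arrays. In TAC the group mean was above 0 for 8 of 8 subunits at ZT15 and at ZT19 and for 0 of 8 at ZT03 and at ZT11. In SHAM it was above 0 for 7 subunits at ZT15 and at ZT19, and for 1 at ZT03 and 0 at ZT07. The share of all genes above 0 at these times was not counted. The main component of all other genes, described below, was likewise higher at ZT15 and ZT19 than at ZT03 in both surgeries.

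**Figure D1:**
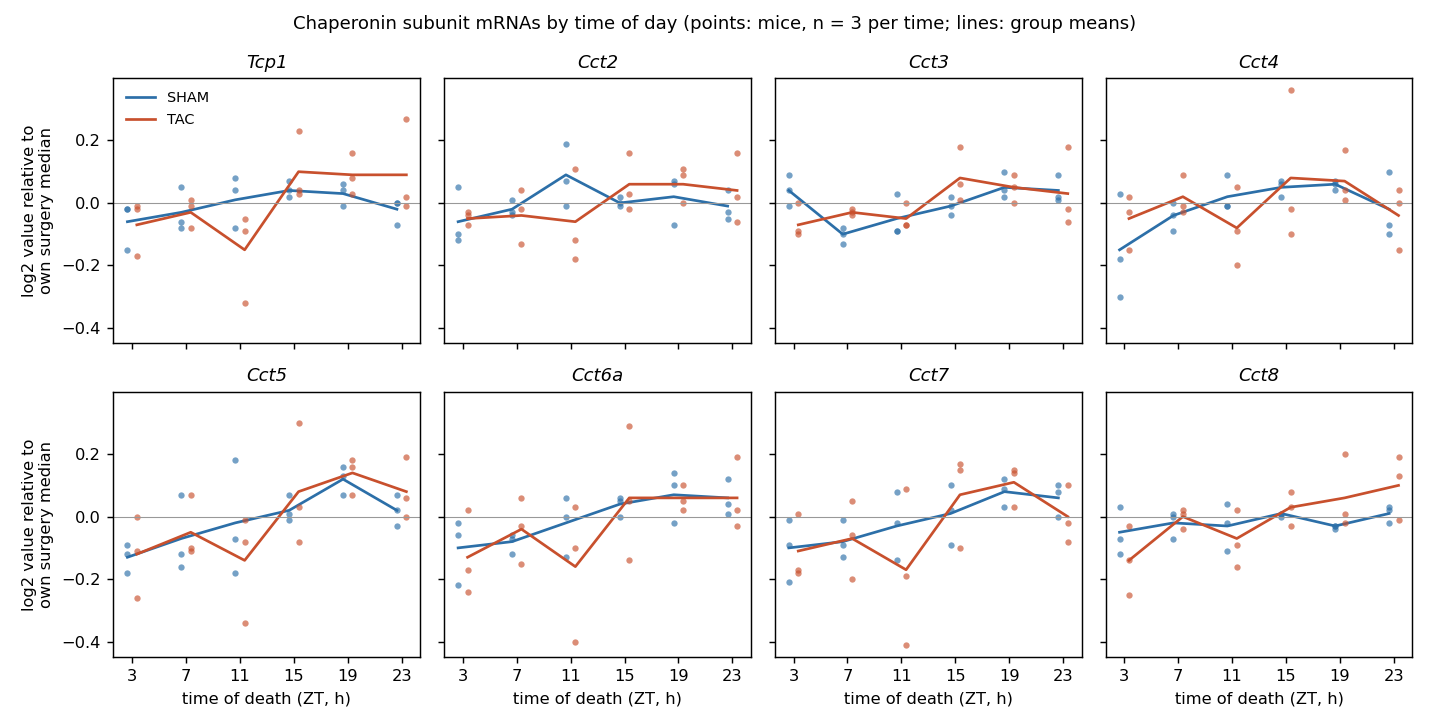
Log2 value of each subunit mRNA relative to the median of its own surgery (vertical axis) against time of death (ZT, h), with 1 point per mouse, 3 mice per time, and lines through the group means for SHAM and TAC. TAC points spread more widely than SHAM points, and the lowest TAC point of 6 subunits is 1 mouse at ZT11.

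Cct5 and Tcp1 had the largest fits relative to their error in TAC. Cct5 values in TAC were -0.01, -0.34 and -0.08 at ZT11, and 0.16, 0.07 and 0.18 at ZT19. All 3 mice at ZT19 were above all 3 at ZT11, its times of highest and lowest mean, picked from these values. A 24-h curve fitted to Cct5 in TAC had an amplitude (mean to peak) of 0.133 ± 0.038 (SE, n = 18), a peak at ZT19.1 ± 1.07 h and a peak-to-trough fold of 1.2. It did not pass (adjusted p = 0.0746, limma moderated F-test with Benjamini-Hochberg over 12393 genes).

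In SHAM, Cct5 was -0.18, -0.12 and -0.09 at ZT03 and 0.07, 0.16 and 0.13 at ZT19, again without overlap between its times of lowest and highest mean. Its SHAM curve had an amplitude of 0.1 ± 0.038 and a peak at ZT17.8 ± 1.43 h (limma adjusted p = 0.234). The amplitudes in the 2 surgeries lay within 1 SE of each other.

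Tcp1 in TAC was -0.05, -0.32 and -0.09 at ZT11 and 0.16, 0.08 and 0.03 at ZT19, and ZT23 replicate 3 had its highest value, 0.27. The fitted amplitude was 0.109 ± 0.029 with a peak at ZT19.8 ± 1.03 h, and this was the lowest adjusted p of any subunit (0.0617, limma). In SHAM the Tcp1 values ranged over all 18 mice from -0.15 to 0.08, and the amplitude was 0.053 ± 0.029 (limma adjusted p = 0.486).

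Cct7 in TAC held both the lowest single value of the complex, -0.41 in ZT11 replicate 2, and 0.09 in replicate 1 of the same group. At ZT19 its values were 0.14, 0.15 and 0.03, so these groups overlapped. The amplitude was 0.118 ± 0.037 in TAC and 0.086 ± 0.037 in SHAM, with peaks at ZT18.9 and ZT18.7. Cct6a, the zeta subunit of most tissues, was 0.03, -0.4 and -0.1 in TAC at ZT11 and -0.14, 0.05 and 0.29 at ZT15, with an amplitude of 0.102 ± 0.038 and 0.088 ± 0.038 in SHAM. Groups of Cct6a at these 2 times overlapped too.

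Cct3 was the subunit whose SHAM course stood apart. Its SHAM values were lowest at ZT07 (-0.08, -0.1 and -0.13) and above 0 at ZT19 (0.1, 0.02 and 0.04) and ZT23 (0.09, 0.01 and 0.02), and it was the 1 subunit with a SHAM mean above 0 at ZT03 (0.09, 0.04 and -0.01). Its fitted peak was at ZT21.4 ± 1.15 h in SHAM and ZT17.8 ± 1.21 h in TAC, with amplitudes of 0.071 ± 0.021 and 0.067 ± 0.021. The limma test of the difference between the 2 curves did not pass (adjusted p = 0.863).

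Cct8 was nearly flat in SHAM, between -0.12 and 0.04, with -0.03, -0.04 and -0.03 at ZT19, and its amplitude there was 0.013 ± 0.027. This is the mean of 2 probe sets whose fitted SHAM peaks lay far apart, at ZT15.3 and ZT2.4. In TAC Cct8 was -0.25, -0.14 and -0.03 at ZT03 and 0.13, -0.01 and 0.19 at ZT23. These groups, picked as its lowest and highest, did not overlap. The TAC amplitude was 0.08 ± 0.027 (limma adjusted p = 0.169), and the difference of the curves did not pass (limma adjusted p = 0.881). The amplitude of Cct4 was 0.09 ± 0.035 in SHAM, against 0.055 ± 0.035 in TAC (limma adjusted p of the difference = 0.951). Its highest value, 0.36, was TAC ZT15 replicate 3 beside -0.1 and -0.02 in the same group. Cct2 had amplitudes of 0.045 ± 0.027 and 0.069 ± 0.027, with peaks at ZT13.4 ± 2.25 h in SHAM and ZT18.9 ± 1.47 h in TAC.

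No subunit passed the rhythm test at an adjusted p under 0.05 in either surgery (limma, 0 of 8 in SHAM and 0 of 8 in TAC), where 5.58% of all genes did in SHAM and 4.35% in TAC. At an unadjusted p under 0.05 there were 3 of 8 in SHAM (Cct3, Cct4 and Cct5), against 18.8% of all genes, and 7 of 8 in TAC (every subunit other than Cct4), against 19.8%. Fitted TAC peaks of all 8 subunits fell between ZT17 and ZT20, a window that held 17.6% of all genes and was chosen after the peaks had been seen. In SHAM 3 of 8 did, against 11.2%. These are peaks of the mean over the probe sets of a gene. In TAC the single probe sets of Cct4 peaked from ZT6.46 to ZT18.2. Those of Cct3 peaked from ZT13.3 to ZT19.3 and those of Cct8 from ZT12.8 to ZT19.6, so some lay outside the window. The single probe sets of Cct2, Cct6a and Cct7 all peaked within it in TAC. Over the alternatives run, the TAC peak of Tcp1 lay between ZT18.8 and ZT21.2 and that of Cct4 between ZT13.1 and ZT20.4. Between ZT16 and ZT22 the counts were 8 of 8 in TAC (29.5% of all genes) and 5 of 8 in SHAM (20.6%). The median amplitude of the subunits was 0.078 in SHAM and 0.091 in TAC, beside 0.048 and 0.047 over all genes. The subunits vary together, so their counts are not 8 separate observations. Behind each p-value and SE is 1 spread per gene for both surgeries, though the spread of all 8 was larger in TAC. The TAC p-values and SEs may therefore be too small. Fitted to the arrays of each surgery alone, 0 of 8 passed in either, with 9.41% of all genes called in SHAM and 1.15% in TAC.

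The counts of adjusted calls depended on single arrays and on processing. Without TAC ZT07 replicate 1, Tcp1, Cct5 and Cct7 passed in TAC (limma adjusted p = 0.0461, 0.0288 and 0.0491), where 4.45% of all genes then did. Tcp1 passed without TAC ZT07 replicate 2 or without TAC ZT19 replicate 3 (0.0454 and 0.0492), and Cct3 passed in SHAM without SHAM ZT11 replicate 1 (0.046). Quantile normalization of the arrays gave 3 calls in SHAM, Cct3, Cct5 and Cct6a (0.0133, 0.0174 and 0.0494), with 11.5% of all genes called, and Tcp1 in TAC (0.0474), with 4.32%.

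**Figure D2:**
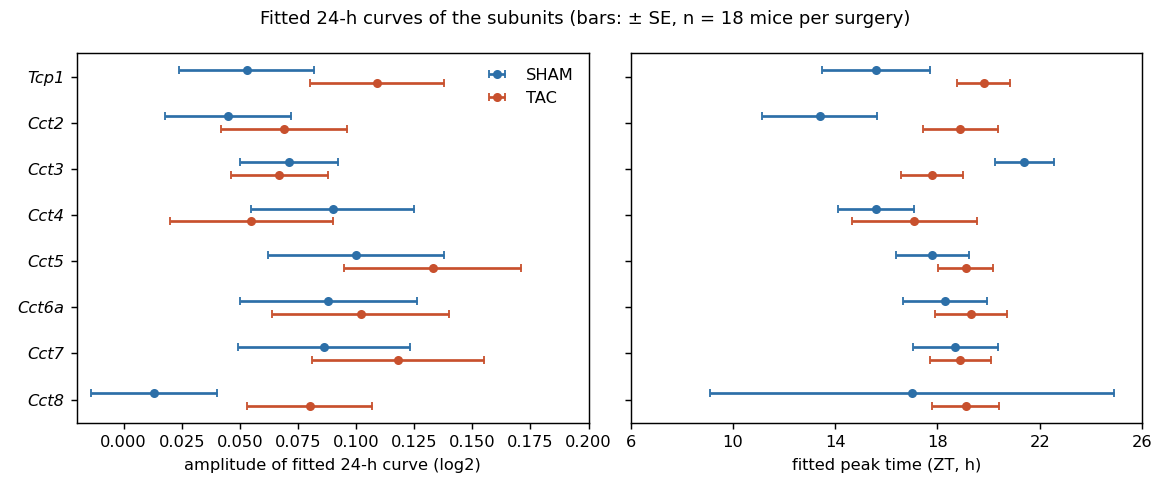
Amplitude of the fitted 24-h curve in log2 units (left) and fitted peak time in ZT hours (right) of each subunit, SHAM and TAC, as points with bars of ± 1 SE from 18 mice per surgery. The SE uses 1 spread per gene for both surgeries. The 8 TAC peaks lie between ZT17.1 and ZT19.8, while the SHAM peaks run from ZT13.4 to ZT21.4, and the SHAM peak of Cct8 has an SE of 7.89 h at an amplitude of 0.013.

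A change of any shape over the 6 times, with no curve assumed, also passed for 0 of 8 subunits in SHAM (3.37% of all genes) and 0 of 8 in TAC (5.26%) in limma. At an unadjusted p under 0.05 these were 1, Cct3, in SHAM (13.2% of all genes) and 4, Tcp1, Cct5, Cct7 and Cct8, in TAC (20.3%). Cct8 had the lowest adjusted p, 0.0618. Without TAC ZT11 replicate 1 the TAC count was 3, with 9.9% of all genes called. It was 1 without TAC ZT03 replicate 3 (8.56%), TAC ZT19 replicate 2 (4.33%) or TAC ZT23 replicate 2 (4.24%). It was 1 as well without the 3 arrays that carried thymocyte or airway markers (7.95%).

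For none of the 8 subunits did a test separate the courses in TAC and SHAM. The limma test of equal 24-h curves called 0 of 8 at an adjusted p under 0.05 (0.0484% of all genes) and 0 of 8 at an unadjusted p under 0.05 (6.27%). The lowest value was that of Tcp1 (adjusted p = 0.825). With no curve assumed, the limma test for unequal time courses called 0 of 8 after adjustment (0.0161% of all genes) and 0 of 8 before it (5.57%). Fitted amplitudes were larger in TAC for 6 of 8 subunits, where 48.9% of all genes had a larger one.

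Mice killed at the same time differed more in TAC. The SD around the group means was larger in TAC than in SHAM for 8 of 8 subunits, as it was for 71.9% of all genes, and this was not tested. For Cct6a it was 0.151 in TAC against 0.074 in SHAM, a ratio of 2.04, and for Tcp1 0.108 against 0.059, a ratio of 1.84. The ratio was lowest for Cct5, 1.37. The median ratio was 1.64 over the subunits and 1.23 over all genes. The mice at the low end were largely the same ones from subunit to subunit, and those at the high end less so. TAC ZT11 replicate 2, with a subunit mean of -0.26, was the lowest TAC array for 6 of 8 subunits. SHAM ZT03 replicate 3, at -0.15, was the lowest SHAM array for 6 of 8. TAC ZT15 replicate 3, with adipocyte markers above 1, had a mean of 0.22 and was the highest TAC array for Cct4, Cct5 and Cct6a. TAC ZT23 replicate 3 was the highest for Tcp1, Cct2 and Cct3, and other TAC arrays were highest for Cct7 and Cct8.

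Over the arrays of a surgery, times of day included, the subunits varied together in TAC and less so in SHAM. Over the 18 TAC arrays all 28 pairs of subunits had a positive Pearson r, from 0.44 (Cct4 with Cct8) to 0.92 (Cct5 with Cct6a), and the median was 0.78 (Spearman's rho 0.76). The median over all pairs of genes was 0.017, and 0.295% of all pairs lay above 0.78. In SHAM the median was 0.39 (rho 0.27), with a range from -0.2 (Cct3 with Cct8) to 0.78 (Cct6a with Cct7). There 24 of 28 pairs were above 0, and 14.7% of all gene pairs lay above 0.39. These are descriptions over arrays that share processing, and the difference between the surgeries was not tested. The gap between them narrowed with the probe set of largest SD in place of the mean over probe sets, to a median r of 0.7 in TAC and 0.57 in SHAM, and in SHAM the median was 0.54 with each array centred on its median. Without the 2 arrays farthest from the median of the subunit mean, the median r was 0.71 in TAC and 0.26 in SHAM. Without the 7 arrays with markers of other tissues it was 0.78 and 0.42.

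The mean of each group of surgery and time was then taken away, which leaves the differences between mice of 1 time. The median r was 0.7 in TAC (rho 0.68, 28 of 28 pairs above 0) and 0.33 in SHAM (rho 0.16, 21 of 28). Of all gene pairs 1.75% and 19.4% lay above these values. The SHAM value was 0.2 without SHAM ZT11 replicate 3, the array with thymocyte markers, and 0.21 without SHAM ZT03 replicate 3. It was 0.15 without both, and 0.2 after quantile normalization. With the probe set of largest SD the values were 0.58 in TAC and 0.45 in SHAM, and without the 7 arrays with markers of other tissues 0.76 and 0.2.

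Each subunit was also set against the mean of the other 7 and ranked with all genes outside the complex, 12386 genes in each ranking. In TAC, Cct5 ranked 3 with an r of 0.95, Cct6a ranked 8 (0.93) and Tcp1 ranked 25 (0.91). Cct7, Cct3 and Cct2 ranked 102, 120 and 123. Cct8 ranked 512 and Cct4, the least alike, 768 with an r of 0.7. In SHAM, Cct6a ranked 8 (0.9) and Cct7 87, but Cct8 ranked 2203 (0.36) and Cct3 4224 (0.05). Cct6a was thus near the top in both surgeries, and Cct3 followed the others in TAC but not in SHAM.

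**Figure D3:**
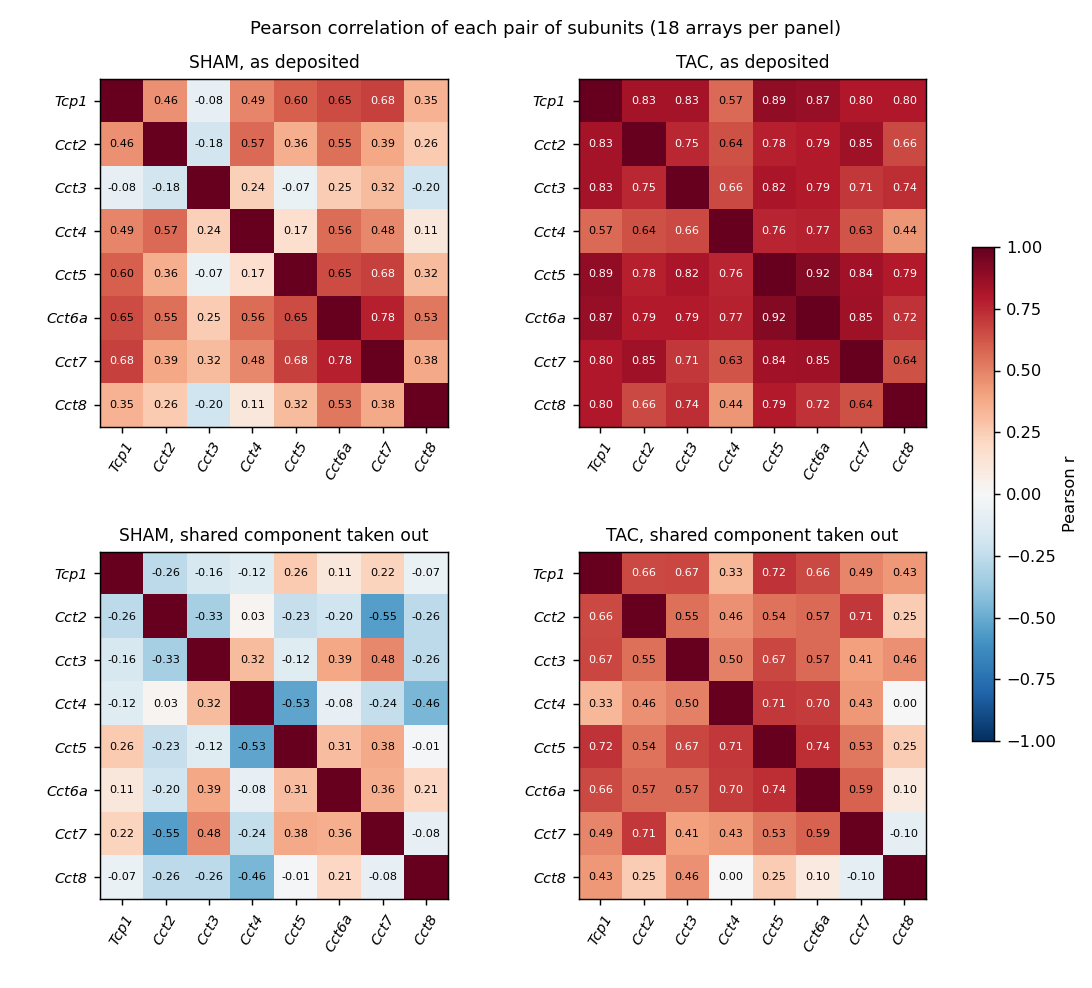
Pearson r of each pair of the 8 subunits over the 18 SHAM arrays (left) and the 18 TAC arrays (right), as deposited (top) and after the component shared by all other genes was taken out (bottom); the colour scale runs from -1 to 1. The TAC panels are red throughout at the top, from 0.44 to 0.92, and mostly red at the bottom, while the SHAM panel at the bottom mixes signs, from -0.55 to 0.48.

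Much of the variation between the arrays was shared by many genes. The first principal component of all genes outside the complex held 23.4% of their variance in SHAM and 24.4% in TAC. In SHAM this component was weighted to a few arrays, with scores of -0.68 for ZT03 replicate 3 and 0.47 for ZT11 replicate 3, the array with thymocyte and adipocyte markers, and these 2 held 68.1% of the sum of squared scores. In TAC the 2 largest held 47.1%. With its sign set to follow the subunits, the mean score of the component in TAC was -0.24, -0.05, -0.14, 0.06, 0.14 and 0.22 from ZT03 to ZT23. In SHAM it was -0.34, -0.12, 0.12, 0.13, 0.13 and 0.08. The mean of the 8 subunits followed the component with an r of 0.93 in SHAM and 0.84 in TAC. Of the subunits, 5 of 8 in each surgery had an r beyond 0.7 with it in size, against 14.2% of all genes in SHAM and 16.2% in TAC. Cct6a was highest in SHAM (0.82) and Cct3 lowest (0.04), and in TAC Cct5 and Cct8 were highest (both 0.85) and Cct4 lowest (0.52).

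After this component was taken out of every gene, the median r of the 28 pairs was -0.08 in SHAM, with 11 pairs above 0, and 60.8% of all gene pairs lay above it. In TAC it was 0.54, with 26 pairs above 0, and 3.39% of all pairs lay above it. TAC pairs with the highest r were then Cct5 with Cct6a (0.74), Tcp1 with Cct5 (0.72), and Cct4 with Cct5 and Cct2 with Cct7 (both 0.71). Cct5 ranked 12 among 12386 genes by its r with the other subunits, Tcp1 53 and Cct6a 64, while Cct8 ranked 4517. In SHAM Cct6a ranked 255 and Cct2 12089. Taking the component out was chosen after the data had been seen.

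Other measures of the arrays were set beside the subunit mean. Its r with the median of the array was -0.75 in SHAM and -0.27 in TAC. Its r with the difference between the 3′ and 5′ control probe sets, a sign of RNA integrity, was 0.01 and 0.24 for Gapdh and 0.17 and -0.12 for Actb. The marker means followed it with 0.3 and 0.34 for cardiomyocytes (6 of 6 markers measured), -0.24 and -0.24 for fibroblasts (6 of 6) and -0.01 and 0.39 for endothelial cells (6 of 6). The thymocyte mean (9 of 11 measured) had an r of -0.69 in TAC, where it ranged from -0.09 to 0.15. The part of these measures in the shared movement was not tested.

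**Figure D4:**
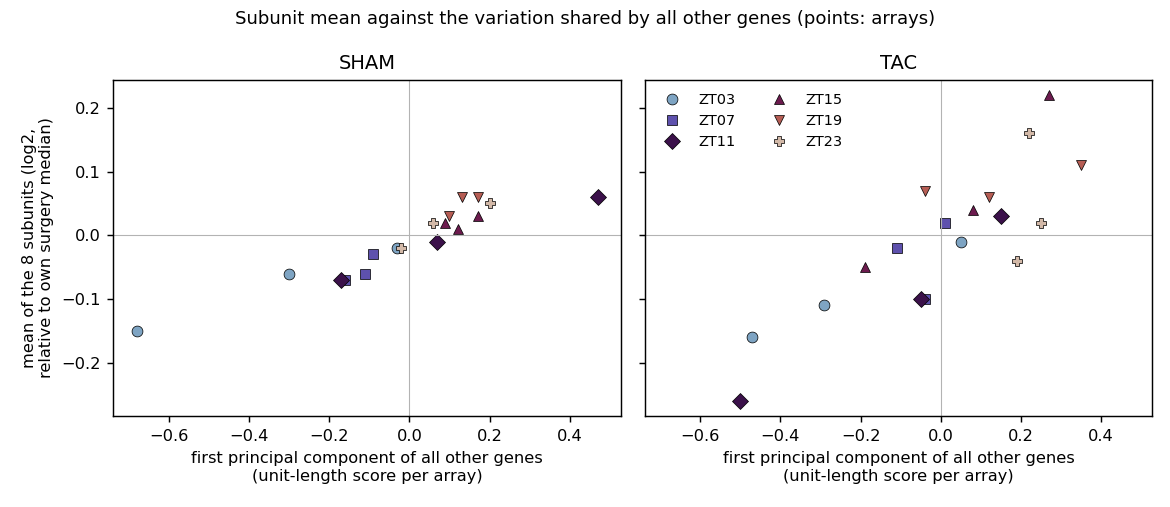
Mean of the 8 subunits (log2, relative to the surgery median, vertical axis) against the score of each array on the first principal component of all other genes (unit-length score, horizontal axis), SHAM left and TAC right, with 1 point per array and a symbol per time. The points rise together, with r of 0.93 in SHAM and 0.84 in TAC; ZT03 replicate 3 is at the lower left in SHAM and ZT11 replicate 2 in TAC.

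Of the genes outside the complex, 10 followed the scaled mean of the subunits most closely over the 36 arrays. They were Hint1, a nucleotide hydrolase gene, with an r of 0.91, Elob, which encodes elongin B (0.9), the mitochondrial ribosomal protein genes Mrpl13 and Mrps15 (both 0.9), Pam16, of the mitochondrial import motor (0.89), Atp5j2, of ATP synthase (0.89), Park7 (0.89), Spag7 (0.88), the splicing factor gene Rnps1 (0.88) and Eif3k, of a translation initiation factor (0.88). Hint1 had a 24-h rhythm in TAC, with an amplitude of 0.176 ± 0.037 and a peak at ZT18.7 (limma adjusted p = 0.00871), and so did Eif3k, with 0.134 ± 0.034 and ZT19.1 (0.0419). In SHAM their adjusted p was 0.299 and 0.632, and the difference between the surgeries did not pass for either (limma adjusted p = 0.88 and 0.872). With the shared component taken out, 0 of these 10 genes were among the 10 most alike in SHAM and 1, Park7, in TAC.

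The chaperonin works with cofactors. Prefoldin hands it nascent actin and tubulin, and phosducin-like proteins bind it and adjust its cycle. Of 12 genes listed as cofactors 10 were measured. These 10 include Cct6b, which is a form of a ring subunit and no cofactor. Of the 10, 2 had a rhythm in TAC, where 4.35% of all genes did. The 2 were the prefoldin subunit genes Pfdn2 (amplitude 0.172 ± 0.04, peak ZT19, limma adjusted p = 0.0238) and Pfdn6 (0.153 ± 0.038, ZT18.3, 0.0388). In SHAM 0 of 10 passed (5.58% of all genes), with 3 at an unadjusted p under 0.05 (18.8%). For Pfdn2 and Pfdn6 the difference between the surgeries did not pass (limma adjusted p = 0.789 and 0.932). Pdcl3, a phosducin-like gene, had 0.159 ± 0.043 in TAC at ZT19.2 (adjusted p = 0.0605) and 0.044 ± 0.043 in SHAM. The mean of the 10 genes, Cct6b included, followed the mean of the subunits with an r of 0.87 in SHAM and 0.9 in TAC. With the shared component taken out, the median r of these 10 was 0.14 in SHAM (0.02 over all genes). In TAC it was 0.47 (0.1 over all genes). Cct6b, the testis form of the zeta subunit, singled out after its values were seen, had an r, before this removal, of -0.53 and -0.01.

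With the values as deposited, the clients of the chaperonin followed it less closely as a group than the cofactor list did. Of 28 measured client genes of 30 listed, 4 had a rhythm in SHAM and 2 in TAC (limma), against 5.58% and 4.35% of all genes. Tuba8, an alpha-tubulin gene of muscle, had the largest amplitude in SHAM, 0.36 ± 0.057 with a peak at ZT20.8 (adjusted p = 0.000193), and 0.324 ± 0.057 at ZT19.4 in TAC (0.00141). Tuba1a had 0.296 ± 0.058 in SHAM (0.00346) and 0.25 ± 0.058 in TAC (0.0231). Gnb5, a G protein beta subunit gene, passed in SHAM alone (0.098 ± 0.025, adjusted p = 0.0349), and the difference between the surgeries did not pass (adjusted p = 0.789). The median r of the client genes with the subunit mean over the 36 arrays was 0.16, from -0.6 to 0.66. For the measured genes of the cofactor list this median was 0.66. With the shared component taken out, the median of the client genes was 0.21 in SHAM (0.02 over all genes), with 21 of 28 above 0. In TAC it was then 0.02 (0.1 over all genes), with 15 of 28 above 0.

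The tubulin folding cofactors, which take tubulin from the chaperonin and build the dimer, were all measured, and 0 of 5 passed in either surgery (limma). At an unadjusted p under 0.05 there were 3 in SHAM and 1 in TAC, against 18.8% and 19.8% of all genes. Tbca had an r with the subunit mean of 0.9 in SHAM and 0.53 in TAC, and Tbcd of -0.61 and -0.5. Both genes of the mitochondrial chaperonin, Hspd1 and Hspe1, had TAC peaks near those of the cytosolic one, at ZT17.8 and ZT18, with amplitudes of 0.118 ± 0.047 and 0.117 ± 0.041, and neither passed (adjusted p = 0.266 and 0.189). Of the chaperonin-like genes of Bardet-Biedl syndrome, 1 of 3 was measured, Mkks, with 0.092 ± 0.028 in SHAM and 0.095 ± 0.028 in TAC (adjusted p = 0.103 and 0.0879).

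The heat shock chaperones of the cytosol, which fold and hold proteins alongside the chaperonin, had fitted peaks at a similar time of day. They lay between ZT16 and ZT22 for 16 of 18 in SHAM (20.6% of all genes) and 17 of 18 in TAC (29.5%). Of 18 measured of 19 listed, 11 had a rhythm in SHAM and 6 in TAC (limma), against 5.58% and 4.35% of all genes. The median amplitude was 0.217 in SHAM and 0.15 in TAC, beside 0.048 and 0.047 over all genes. Dnaja1, an HSP40 gene, had 0.467 ± 0.067 in SHAM with a peak at ZT19 and 0.369 ± 0.067 in TAC at ZT17.3. Hsp90aa1, the inducible HSP90, had 0.421 ± 0.06 at ZT20.5 and 0.364 ± 0.06 at ZT19.2. Hspa8, the constitutive HSP70, had 0.214 ± 0.045 at ZT19.1 and 0.194 ± 0.045 at ZT18.6. Their mean followed the subunit mean with an r of 0.59 in SHAM and 0.77 in TAC. With the shared component taken out, the median r of the 18 genes was 0.68 in SHAM (0.02 over all genes) and 0.62 in TAC (0.1 over all genes). Of 2 listed heat shock factor genes 1 was measured, Hsf2, which did not pass in either surgery (limma). Before this removal Hsf2 had an r of -0.2 in SHAM and -0.25 in TAC, and after it 0.13 and 0.04.

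**Figure D5:**
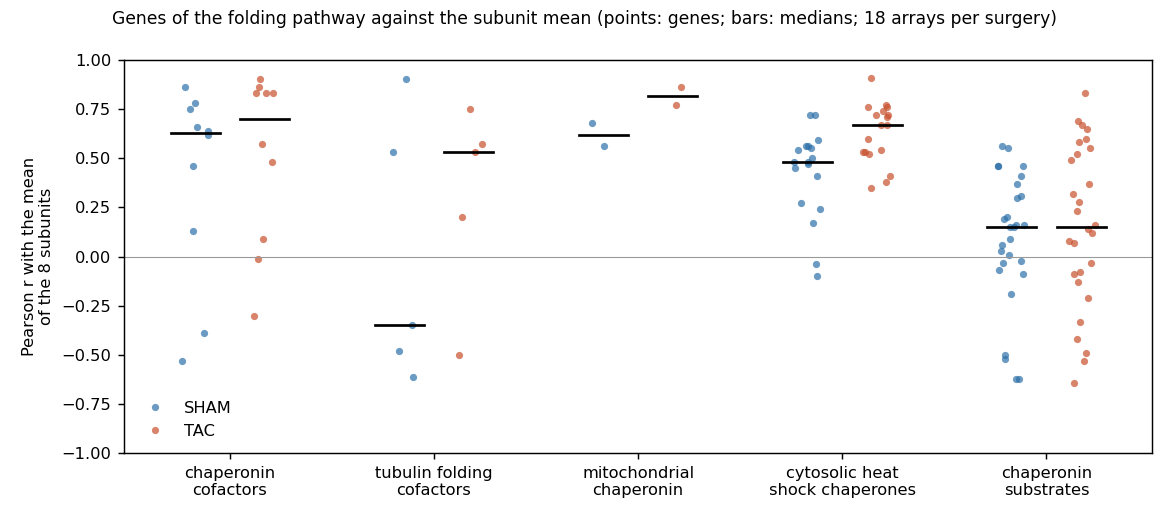
Pearson r of each measured gene of 5 lists with the mean of the 8 subunits (vertical axis), over the 18 SHAM and the 18 TAC arrays; points are genes and bars are medians of the list. Cofactors, mitochondrial chaperonin and heat shock chaperones lie mostly above 0, and the client genes spread on both sides of 0.

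The probe sets of a gene did not always move together, which bears on several subunits. The 2 probe sets of Cct8 had an r of -0.6 in SHAM and near 0 in TAC, and in TAC their amplitudes were 0.164 ± 0.0521 and 0.0219 ± 0.0224. In SHAM these were 0.0672 ± 0.0521 with a peak at ZT15.3 and 0.0445 ± 0.0224 at ZT2.4, so their mean was flatter than either. Among the 6 probe sets of Cct4 the r ran from -0.57 to 0.9 in TAC, with amplitudes from 0.006 to 0.232. Those of Cct3, 6 in number, ran from -0.26 to 0.81 in TAC, and the 3 of Cct2 from 0.03 to 0.72. The 2 of Cct6a had an r of 0.13 in SHAM, where the mean of both ranked 8 among all genes, and 0.77 in TAC. The 2 of Cct7 followed each other with 0.61 in SHAM and 0.79 in TAC. Tested one by one over 20380 probe sets, 1 of 23 had a rhythm in TAC, a probe set of Cct3 with an amplitude of 0.16 ± 0.0382 and a peak at ZT19.3 (limma adjusted p = 0.0306), where 3.87% of all probe sets passed. In SHAM 0 of 23 passed (4.44% of all), with a lowest adjusted p of 0.0998.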

How the data were processed

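Per the labels' protocols, hearts were snap frozen, and Trizol RNA (6 ug) was labelled. The deposited values are on a log scale, taken here as log2, for 22690 probe sets. The labels used here do not state their log base, probe summary or normalization. Each probe set had a median within 5e-07 of 0 in each surgery. The 20380 non-control probe sets with 1 symbol in the platform annotation were averaged per gene (12393 genes, 4956 with several). Groups came from the sample titles.

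limma 3.58.1 in R 4.3.3 fitted a mean, cosine and sine of 24 h per surgery over 36 arrays, or 12 group means. F-tests were moderated without a trend and adjusted by Benjamini-Hochberg over all genes, with a threshold of 0.05. They were also run on simulated data in which genes varied independently, with the same spread in both surgeries. That check cannot show what a larger spread in TAC, or variation shared between genes, does to the p-values. In the fits to the deposited values the spread was 1 estimate per gene for both surgeries. P-values and SEs of a surgery therefore do not show its own spread. With the arrays of each surgery alone, fewer genes had a rhythm in TAC (1.15% against 4.35%) and more in SHAM (9.41% against 5.58%). Under that fit only the subunits were looked up.

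The members, lists and alternatives were chosen with earlier results of these data known. Named were all 8 subunits, the 10 genes most alike, neighbours by position, and of each list up to 4 genes by the smallest p over both surgeries' rhythms. Figures were drawn with matplotlib 3.10.9.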

Additional observations from a re-analysis of the deposited data

How the results depend on the processing

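The log base and the authors' normalization are unknown, levels cannot be compared between the surgeries, and signal over background was not used here. The counts of subunits with a rhythm, 0 in each surgery, became 3 in SHAM and 1 in TAC after quantile normalization (11.5% and 4.32% of all genes called), 2 in SHAM with array weights (15.9%) and 1 in TAC with the probe set of largest SD (4.45%). Replicate numbers did not pair the mice (r of same-numbered arrays around their group means from -0.21 to 0.36, above 0.1 in 4 of 18), and with the number as a replicate block 1 subunit, Cct5, passed in TAC (4.56%). The counts for any shape, also 0, became 2 in SHAM and 2 in TAC with array weights (15.2% and 22.9% of all genes), 1 in TAC with the probe set of largest SD (5.03%) and 1 in TAC without the 3 arrays with thymocyte or airway markers (7.95%). Leaving out 1 array or 1 replicate number gave 0 to 1 subunits with a rhythm in SHAM, 0 to 3 in TAC, 0 to 3 with a change of any shape in TAC, and 0 in the other tests. Both tests of a difference between the surgeries gave 0 under every alternative run. The median r of the pairs was also taken with 1 array or 1 replicate number left out. It then ran from 0.25 to 0.51 in SHAM and from 0.73 to 0.83 in TAC. Around group means it ran from 0.2 to 0.45 in SHAM and from 0.65 to 0.75 in TAC. Without the 2 arrays of a surgery farthest from the median of the subunit mean it was 0.26 in SHAM and 0.71 in TAC. With 2 arrays picked in the same way around group means it was 0.15 and 0.64. Without the shared component it was -0.08 in SHAM and 0.54 in TAC, and around group means -0.1 and 0.5, and with the probe set of largest SD it was 0.57 in SHAM and 0.7 in TAC, and around group means 0.45 and 0.58. Centring each array on its median gave 0.54 in SHAM, and quantile normalization 0.2 around group means in SHAM. Subunits with a larger SD in TAC numbered 7 to 8. A filter on the less variable genes kept 5 of the 8 subunits and called 0. Beyond what the construction of an alternative shows, the cause of these shifts was not tested.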
